A study of Mus musculus with 33 samples.

Results

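The genes of the neurotrophins, of GDNF and of their receptors were followed in mouse frontal cortex after early life exposure to e-cigarette aerosols. The 9 genes Bdnf, Ntf3, Ntrk2, Ntrk3, Gdnf, Gfra1, Gfra2, Ret and Sort1 were taken by symbol from the 23366 genes in each of 2 tables of read counts, and all 9 passed the filter on low counts in both.

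Neurotrophins are secreted proteins that keep neurons alive and shape synapses, and brain-derived neurotrophic factor (Bdnf) and neurotrophin-3 (Ntf3) are the members of the family whose receptors, TrkB (Ntrk2) and TrkC (Ntrk3), are widely made in the forebrain. Glial cell line-derived neurotrophic factor (Gdnf) belongs to a separate family and signals through a co-receptor held on the outer membrane, Gfra1 or its relative Gfra2, which is the preferred partner of neurturin, together with the receptor kinase Ret. Sortilin (Sort1) binds the precursors of the neurotrophins and takes part in sorting Bdnf for release. In cortex, Bdnf is made mainly by glutamatergic neurons, its transcription follows neuronal activity through several alternative promoters, and Gdnf is best known in the forebrain from neurons of the striatum.

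C57BL/6 dams inhaled filtered air or the aerosol of an e-cigarette through gestation, and again with their pups through lactation. The e-cigarette liquid either held nicotine, at 13 to 16 mg/mL, or held none. Frontal cortex was taken at about 1 month of age from 1 pup per litter. Females gave 6 air-exposed controls and 5 samples for each aerosol. Among the samples labelled male there were 6 air-exposed controls, 6 exposed with nicotine and 5 exposed without it. Whole-body inhalation exposes dam and pup together, and the part that reached the pup through the dam cannot be told apart from what it breathed. Females and males were sequenced in separate runs, so sex and run cannot be told apart and levels were compared only within a sex.

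Female libraries held 19150562 to 27513174 counts and male libraries 17845672 to 24787955. Levels are CPM, a gene's reads relative to all reads of its library, scaled by TMM normalization, which corrects for differences in library composition. Changes are log2 fold changes from the edgeR quasi-likelihood test with the standard error (SE) implied by its F statistic, Benjamini-Hochberg adjustment ran over all genes tested, and a gene was called at an adjusted p below 0.01. A library labelled male, in the nicotine group (replicate 21), carried more Xist than Y-linked RNA and so goes against its label, and each change of the 9 genes that rests on its group is also given without it. "Males with nicotine" stands for the samples so labelled. Some libraries stood apart for RNA of the choroid plexus, a tissue beside the cortex. Its 5 markers summed to 934 CPM in male no nicotine replicate 7, against 11.9 to 38 CPM in male air samples, and reached 321 CPM in female air replicate 3 and 279 CPM in female no nicotine replicate 3. Female air replicate 6 had 108 CPM, against 13.0 to 18.3 CPM in female air replicates 1, 2, 4 and 5.

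The changes against air differed in direction among the ligands. Bdnf was lower in both exposed groups of females and in males without nicotine, while Gdnf was higher in females with nicotine and in males without nicotine. Of the receptors, edgeR called Ret higher and Gfra2 lower in females without nicotine, and DESeq2 called both in males without nicotine too. Sort1 was lower in the same 3 comparisons as Bdnf. With all libraries, edgeR called Ntrk2, Ntrk3 and Gfra1 in no comparison.

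Promoter sequence is shown for the 2 ligands whose level was called changed in both sexes. The RefSeq windows on GRCm38.p6 run from 250 bases before to 50 bases after a start site, and 5 of the 9 genes had entries, namely Bdnf (7 windows), Gdnf (2), Ntf3 (2), Gfra1 (1) and Ntrk2 (1). Each window was searched on both strands for TGACG, a shorter form of the cyclic AMP response element TGACGTCA, because the list of Bdnf regulators described further on includes factors that bind it. It was present in 1 of 7 Bdnf windows and in 1 of 2 Gdnf windows, and 20.8% of the 32851 windows in the table hold it. The Bdnf match at chr2:109692186-109692485 (plus strand) starts 35 bases before the start site and lies in TCACGTCA, which 0.441% of windows hold on either strand. The Gdnf match at chr15:7809798-7810097 (plus strand) starts 50 bases before the start site. The full element TGACGTCA, in 1.79% of windows, was in neither. Capitals mark the match, read here on the opposite strand as CGTCA, and a match of letters is a description of the window only.
Bdnf: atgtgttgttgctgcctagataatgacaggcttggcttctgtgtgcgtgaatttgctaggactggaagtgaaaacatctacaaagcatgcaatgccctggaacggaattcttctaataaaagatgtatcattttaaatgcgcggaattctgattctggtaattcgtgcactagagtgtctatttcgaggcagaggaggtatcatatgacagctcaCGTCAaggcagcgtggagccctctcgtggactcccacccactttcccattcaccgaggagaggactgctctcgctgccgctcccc
Gdnf: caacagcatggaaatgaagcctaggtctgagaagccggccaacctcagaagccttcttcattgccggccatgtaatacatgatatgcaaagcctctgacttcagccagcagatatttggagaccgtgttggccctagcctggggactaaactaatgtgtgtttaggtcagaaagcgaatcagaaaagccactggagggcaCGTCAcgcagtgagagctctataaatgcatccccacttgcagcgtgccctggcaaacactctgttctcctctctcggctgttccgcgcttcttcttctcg

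**Figure D1:**
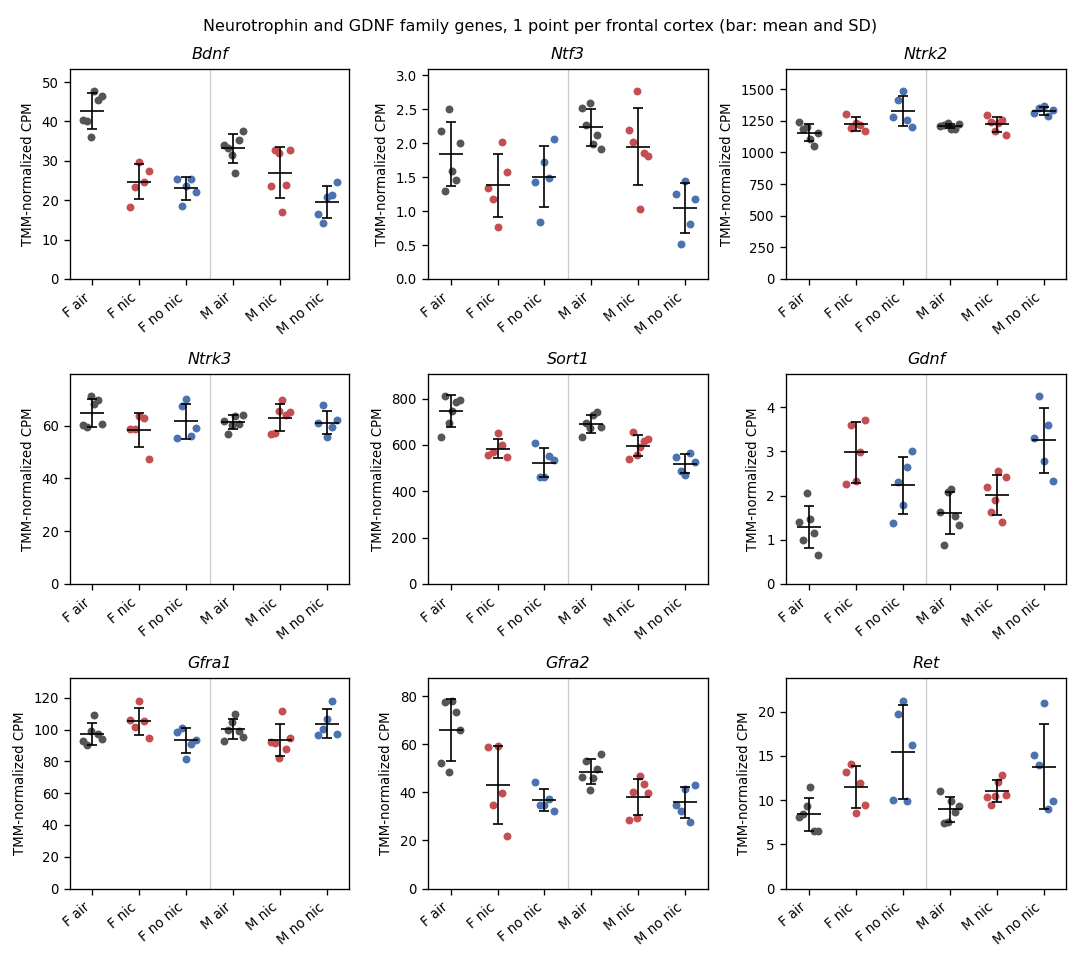
TMM-normalized CPM (linear axis from 0) of the 9 genes in each frontal cortex, grouped by sex (F, M) and treatment (air, aerosol with nicotine, aerosol without nicotine), with a bar for the mean and SD of each group. Every exposed female lies below every air-exposed female for Bdnf, whereas the Ntrk3 and Gfra1 groups overlap throughout. Levels are comparable within a sex only.

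Bdnf (chromosome 2, 109514857 to 109567204 on mm9, plus strand) had counts of 330 to 1262 reads per library, so counting error is small beside the spread between samples. In air-exposed females it ran from 35.9 to 47.6 CPM with a median of 42.9. With nicotine the 5 females had 18.3, 23.5, 24.7, 27.5 and 29.7 CPM, and without nicotine 18.5, 22.1, 23.6, 25.3 and 25.5 CPM. None of the 10 exposed females reached the lowest air sample, and the group means were 42.7 ± 4.52 (SD, n = 6), 24.8 ± 4.33 (n = 5) and 23.0 ± 2.85 CPM (n = 5). The log2 fold change was -0.78 with nicotine (SE 0.110, edgeR adjusted p = 0.000816) and -0.89 without (SE 0.110, adjusted p = 0.000802), a level 1.72-fold and 1.85-fold lower than air. In bulk tissue, fewer cells that make a transcript and less of it per cell cannot be told apart, here and in every result that follows.

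In males, Bdnf ran from 26.9 to 37.7 CPM in air with a median of 33.7. Without nicotine the 5 samples had 14.3, 16.6, 20.7, 21.2 and 24.7 CPM, all below the lowest air sample. This was a log2 fold change of -0.77 (SE 0.157, edgeR adjusted p = 0.00162), or 1.70-fold lower. With nicotine the 6 samples labelled male ran from 17 to 32.9 CPM with a median of 27.9. Of these, 3 samples lay at 17 to 23.8 CPM, below every air sample, and 3 at 32.1 to 32.9 CPM, inside the air range. The log2 fold change of -0.29 (SE 0.146) did not pass the test (edgeR adjusted p = 0.369), and without replicate 21 it was -0.26 (adjusted p = 0.496).

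Ntf3 (chromosome 6, 126051431 to 126116762, minus strand) was a scarce transcript with 12 to 62 reads per library, so its counting error is larger than that of Bdnf. Air-exposed males had 1.92 to 2.58 CPM with a median of 2.20. The 5 males without nicotine had 0.521, 0.810, 1.18, 1.26 and 1.45 CPM, with no overlap with air. Their log2 fold change was -1.09 (SE 0.231, edgeR adjusted p = 0.00212), a level 2.13-fold lower. Males with nicotine had 1.03 to 2.76 CPM with a median of 1.94 and a log2 fold change of -0.21 (adjusted p = 0.706), or -0.19 without replicate 21 (adjusted p = 0.766). In females the ranges were 1.30 to 2.51 CPM in air, 0.764 to 2.02 with nicotine and 0.834 to 2.06 without. These overlapped, and the log2 fold changes of -0.41 (SE 0.243, adjusted p = 0.294) and -0.28 (SE 0.237, adjusted p = 0.436) did not pass the test.

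Gdnf (chromosome 15, 7761011 to 7787575, plus strand) was likewise scarce, with 15 to 98 reads per library. Air-exposed females had 0.655 to 2.06 CPM with a median of 1.28. The females with nicotine had 2.26, 2.34, 2.98, 3.60 and 3.72 CPM, every one above the highest air sample. The log2 fold change was 1.20 (SE 0.244, edgeR adjusted p = 0.00518), or 2.30-fold higher. The call rests on few reads and was lost on leaving out any of 6 of the 16 female libraries, with an adjusted p of at most 0.0192 and a log2 fold change between 1.07 and 1.38. These were air replicates 2, 5 and 6 and nicotine replicates 2, 5 and 6.

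Without nicotine, females had 1.39, 1.79, 2.31, 2.65 and 3.01 CPM of Gdnf, which overlaps the air range, and the log2 fold change of 0.78 (SE 0.250) had an edgeR adjusted p of 0.0314. Air-exposed males had 0.889 to 2.14 CPM with a median of 1.58. The males without nicotine had 2.32, 2.78, 3.30, 3.59 and 4.25 CPM, all above the highest air sample. This gave a log2 fold change of 1.03 (SE 0.206, adjusted p = 0.00139), a level 2.04-fold higher, and the call was kept on leaving out any of the 17 male libraries. Samples labelled male with nicotine had 1.39 to 2.56 CPM with a median of 2.04 and overlapped air. Their log2 fold change was 0.34 (SE 0.209, adjusted p = 0.484), and 0.43 (adjusted p = 0.392) without replicate 21.

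Ntrk2 (chromosome 13, 58907957 to 59235331, plus strand) is the receptor of Bdnf. Its counts pool the full-length kinase and the truncated forms that lack the kinase and are made largely by astrocytes. Its air range was 1053 to 1243 CPM in females and 1187 to 1232 CPM in males. Without nicotine it was 1201 to 1483 CPM in females and 1289 to 1363 CPM in males, and the male groups did not overlap. The log2 fold changes of 0.20 (SE 0.0591, edgeR adjusted p = 0.0218) and 0.14 (SE 0.0369, adjusted p = 0.0105) were small and missed the threshold. DESeq2 called both, with adjusted p = 0.00475 and 0.000266. In males limma-voom with sample weights called it too. So did edgeR on leaving out any of nicotine replicates 15 and 22 and no nicotine replicate 5, with an adjusted p down to 0.00737. With nicotine the log2 fold changes were 0.08 (adjusted p = 0.397) in females and 0.02 (adjusted p = 0.891) in males, or 0.00663 (adjusted p = 0.964) without replicate 21.

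Ntrk3 (chromosome 7, 85337248 to 85723294, minus strand), the neurotrophin-3 receptor, ran from 47.5 to 71.3 CPM over all females and from 55.8 to 70.0 CPM over all samples labelled male. Every exposed group overlapped air. Its log2 fold changes against air were -0.15 and -0.07 in females and 0.04 and -0.00198 in males (with and without nicotine, SE 0.0542 to 0.0817, edgeR adjusted p 0.229 to 0.985). The male value with nicotine was 0.04 (adjusted p = 0.834) without replicate 21 as well. In males without nicotine, where Ntf3 was lower, the log2 change of this receptor had an SE of 0.0567. Gfra1 (chromosome 19, 58310094 to 58530399, minus strand), the co-receptor of Gdnf, ran from 81.6 to 118 CPM in females and from 82.3 to 118 CPM in males. Its log2 fold changes lay between -0.10 and 0.12 with SE of 0.0629 to 0.0684, and the smallest adjusted p against air was 0.245. In males with nicotine it was -0.10, or -0.08 (adjusted p = 0.654) without replicate 21. It shares 416 exon bases with an annotated transcript on the opposite strand, Gm16277, whose reads cannot be told apart if counting ignored strand.

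Gfra2 (chromosome 14, 71289927 to 71379645, plus strand) ran from 48.6 to 78.0 CPM in air-exposed females with a median of 69.7. Females without nicotine had 32.4, 34.8, 34.9, 37.1 and 44.4 CPM, all below air, and the log2 fold change was -0.85 (SE 0.203, edgeR adjusted p = 0.00636). Females with nicotine were spread widely, with 21.9, 34.7, 39.9, 59.1 and 59.2 CPM. This group reached into the air range, and its log2 fold change of -0.62 had an adjusted p of 0.0522. In males the ranges were 41.1 to 55.8 CPM in air, 28.4 to 46.9 with nicotine and 27.6 to 43.2 without. The log2 fold changes were -0.36 (SE 0.124, adjusted p = 0.190) and -0.44 (SE 0.131, adjusted p = 0.0200) and did not pass the threshold, although DESeq2 called the latter (adjusted p = 0.00589). With nicotine the value was -0.40 (adjusted p = 0.200) without replicate 21. The female call was lost on leaving out any of 8 of the 16 libraries (air replicates 2, 4, 5 and 6 and no nicotine replicates 2, 3, 4 and 5), with an adjusted p of at most 0.0199.

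Ret (chromosome 6, 118101766 to 118147762, minus strand) went the other way. In air-exposed females it ran from 6.53 to 11.5 CPM with a median of 8.31. Without nicotine the 5 females had 9.92, 10.1, 16.2, 19.8 and 21.2 CPM, so that 3 lay above all air samples and 2 within their range. The log2 fold change was 0.87 (SE 0.207, edgeR adjusted p = 0.00617). The males without nicotine were split in the same manner, with 9.01, 9.90, 14, 15.1 and 20.9 CPM against 7.38 to 11.1 CPM in air. Their log2 fold change of 0.63 (SE 0.170) had an edgeR adjusted p of 0.0117, above the threshold, while DESeq2 (adjusted p = 0.00322) and limma-voom with sample weights (adjusted p = 0.00324) called it. The edgeR fit also called it without any of air replicate 30 and no nicotine replicates 5 and 7, with an adjusted p of at most 0.00873. With nicotine the log2 fold changes were 0.43 in females (SE 0.212, adjusted p = 0.191) and 0.29 in males (SE 0.166, adjusted p = 0.451), or 0.24 (adjusted p = 0.604) without replicate 21. The female call was lost on leaving out any of 7 libraries (air replicates 1, 2, 5 and 6 and no nicotine replicates 2, 3 and 5) and in the fit of only the 2 groups compared, with an adjusted p of at most 0.0245 among the former.

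Sort1 (chromosome 3, 108087009 to 108164429, plus strand) was abundant, and its changes were smaller than those of Bdnf. Air-exposed females had 633 to 811 CPM with a median of 767. Females with nicotine had 547, 555, 569, 601 and 651 CPM, and females without nicotine 462, 462, 535, 553 and 608 CPM. The groups without nicotine and air did not overlap, and 1 female with nicotine lay above the lowest air sample. The log2 fold changes were -0.35 (SE 0.0793, edgeR adjusted p = 0.00917) and -0.51 (SE 0.0795, adjusted p = 0.000841). The first was close to the threshold and was lost on leaving out any of 11 of the 16 female libraries, with an adjusted p of at most 0.0288. It was also lost with upper quartile scaling (adjusted p = 0.0135) and with no filter on low counts (adjusted p = 0.0102). The libraries were air replicates 2 to 6, nicotine replicates 1, 2, 5 and 6 and no nicotine replicates 4 and 5.

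In males, Sort1 ran from 635 to 742 CPM in air with a median of 687, and the 5 samples without nicotine had 471, 486, 525, 549 and 565 CPM, with no overlap. Here the log2 fold change was -0.42 (SE 0.0592, edgeR adjusted p = 9.67e-05). With nicotine the range was 538 to 655 CPM with a median of 604, and 1 sample reached into the air range. The log2 fold change of -0.21 (SE 0.0561) had an unadjusted p of 0.00127 but an adjusted p of 0.0895, and -0.22 (adjusted p = 0.137) without replicate 21. Sort1 shares 329 exon bases with Gm12523 on the opposite strand.

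**Figure D2:**
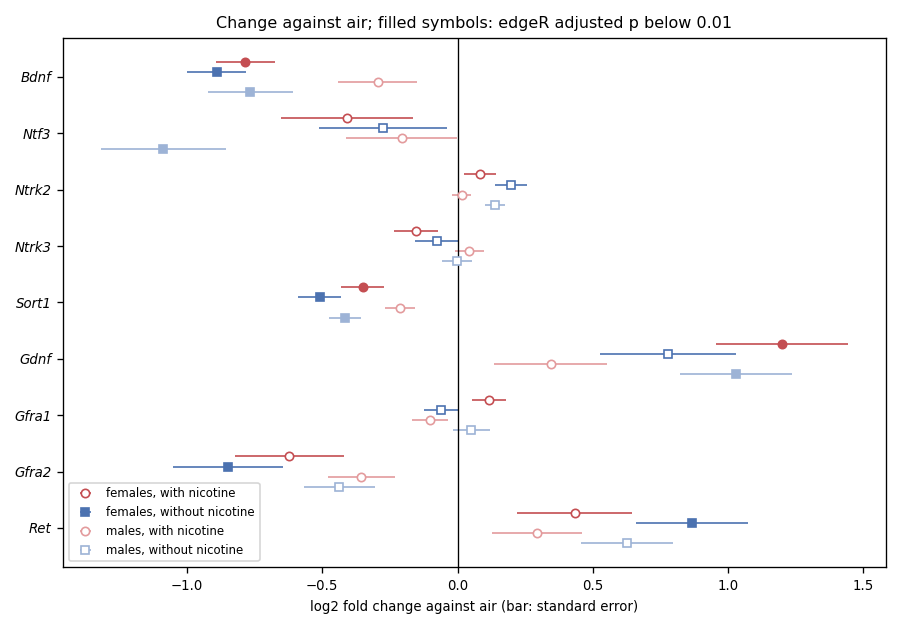
log2 fold change against air for the 9 genes in the 4 comparisons, with bars for the standard error and filled symbols where the edgeR adjusted p was below 0.01. Bdnf and Sort1 lie to the left and Gdnf and Ret to the right of 0 in all 4 comparisons, and no symbol is filled for males with nicotine.

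Counted over the 9 genes, 3 were called in females with nicotine (Gdnf higher, Bdnf and Sort1 lower), where 4.29% of the 15158 genes tested were called, 1.98% higher and 2.32% lower. In females without nicotine 4 were called (Ret higher, Bdnf, Gfra2 and Sort1 lower) against 12.1% of all genes (5.03% higher, 7.03% lower), and Bdnf had the fourth smallest p of all genes. In males without nicotine 4 were called (Gdnf higher, Bdnf, Ntf3 and Sort1 lower) against 13.6% of 15293 genes (6.15% higher, 7.47% lower). In males with nicotine none of the 9 was called, nor was any gene (0%). There an unadjusted p below 0.05 was found for Gfra2, Sort1 and 14.4% of all genes, and DESeq2 also called none of the 9. Groups did not overlap with air for 2, 3, 0 and 5 of the 9 genes (females with and without nicotine, males with and without), where 6.67%, 10.7%, 2.05% and 12.4% of all genes did not. The comparisons of the 2 exposed groups of a sex share their air samples, so the like directions are not independent of each other. The median log2 change of the 9 genes lay between -0.15 and -0.00198 against 0.00 to 0.02 for all genes, since it combines members that rose and members that fell.

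Whether nicotine in the aerosol mattered was asked by comparing the 2 exposed groups directly. In females none of the 9 genes was called, nor any gene (0%). At an unadjusted p below 0.05, edgeR gave 8.36% of all genes and 1 of the 9, Gfra1, at a log2 difference of 0.18 (higher with nicotine, SE 0.0658, adjusted p = 0.574), and DESeq2 called none of the 9. The difference for Bdnf was 0.11 with an SE of 0.116, and for Gdnf 0.42 with an SE of 0.241.

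In males 0.248% of all genes and none of the 9 were called between the exposed groups, while 6 of the 9 and 20.1% of all genes had an unadjusted p below 0.05. Ntf3 was 0.88 higher on the log2 scale with nicotine than without (SE 0.235, edgeR adjusted p = 0.0446), and this passed the threshold of 0.01 with DESeq2 (adjusted p = 0.00827) and on leaving out nicotine replicate 19 (adjusted p = 0.00944). Bdnf was 0.47 higher (SE 0.158, adjusted p = 0.10), Sort1 0.20 higher (SE 0.0590, adjusted p = 0.0631) and Gdnf 0.68 lower, at a log2 difference of -0.68 (SE 0.202, adjusted p = 0.0661). Ntrk2 differed by -0.12 (adjusted p = 0.0709; DESeq2 0.00531) and Gfra1 by -0.15 (adjusted p = 0.218). Without replicate 21 the differences for Ntf3, Bdnf, Sort1, Gdnf, Ntrk2 and Gfra1 were 0.89, 0.51, 0.19, -0.60, -0.13 and -0.13, and none of the 9 was called.

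Whether females and males changed by different amounts was tested in a fit of both, since a call in females and none in males does not show it. None of the 9 genes, and none of 15105 (0%), passed for either aerosol. For the nicotine aerosol the unadjusted p was below 0.05 for 3 of the 9 and for 6.47% of all genes. Relative to males, the change in females was lower by 0.48 on the log2 scale for Bdnf, at -0.48 (SE 0.194, edgeR adjusted p = 0.714), and higher by 0.86 for Gdnf (SE 0.334, adjusted p = 0.691) and 0.23 for Gfra1 (SE 0.0937, adjusted p = 0.723). Without replicate 21 these were -0.51, 0.77 and 0.21. For the aerosol without nicotine only Ntf3 had an unadjusted p below 0.05, at 0.82 (SE 0.343, adjusted p = 0.945), beside 4.91% of all genes.

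Levels between genes were compared per kilobase of the longest annotated coding transcript. In air-exposed females the order of mean level was Ntrk2 (135 CPM per kb), Sort1 (110), Gfra1 (20.9), Ntrk3 (19.7), Gfra2 (19), Bdnf (10), Ntf3 (1.29), Ret (1.15) and Gdnf (0.367), and the male order was the same. The ranges of neighbours overlapped for Gfra1 with Ntrk3, Ntrk3 with Gfra2 and Ntf3 with Ret in females, and for Ntf3 with Ret in males. Taking the length of all exons combined instead puts Sort1 ahead of Ntrk2 in air in both sexes, at 98.6 against 76.7 CPM per kb in females. That length also puts Gfra2 ahead of Ntrk3 in air, at 18.8 against 12.4 in females and 13.8 against 11.7 in males. In females it puts Gfra2 ahead of Gfra1 (17.7) as well. In males without nicotine Gdnf (0.926 CPM per kb) stood above Ntf3 (0.732), the reverse of their order in air (0.456 and 1.56), with overlapping ranges.

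The wider pathway was described with 4 further lists. Over all genes, 4.29%, 12.1%, 0% and 13.6% were called in females with and without nicotine and males with and without nicotine, and the counts are to be read beside these shares. Of 13 tested among 16 other ligands and receptors of these families, 2 were called higher and 1 lower in females with nicotine, 3 and 3 in females without, none in males with nicotine, and 3 and 2 in males without. Ngfr (p75), a receptor that binds all neurotrophins and in the adult forebrain is found chiefly on cholinergic neurons of the basal forebrain, ran from 1.96 to 10.2 CPM in air-exposed females, from 7.10 to 40.1 with nicotine and from 19.9 to 64.7 without. Its log2 fold changes were 2.18 (SE 0.439, edgeR adjusted p = 0.00482) and 2.93 (SE 0.434, adjusted p = 0.000841), and 2.06 (SE 0.318, adjusted p = 0.000183) in males without nicotine. Ngfr is among the genes that the study chose on these samples, as are Bdnf and Gdnf.

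In samples labelled male with nicotine, the log2 fold change of Ngfr (1.52, edgeR adjusted p = 0.0416) missed the threshold of 0.01, and without replicate 21 it was 1.51 (adjusted p = 0.0952). The study, which used DESeq2, reported Ngfr as changed in this comparison. With edgeR, no gene of these lists was called in it without replicate 21 either. The sortilin relatives Sorl1 (-0.45 in females with nicotine, -0.55 without) and Sorcs3 (-0.41 in males without nicotine) were lower, as Sort1 was.

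Of 26 adaptors that couple these receptors to their signalling cascades, 1, 2, 0 and 2 were called higher and none lower in the 4 comparisons with air, in the order above. Of all genes 1.98%, 5.03%, 0% and 6.15% were called higher. The adaptors were Gab1, a docking protein, in females with nicotine (0.30), females without (0.29) and males without (0.29), and Frs3, a docking protein for Trk and other receptor kinases, in females (0.58) and males (0.47) without nicotine. Of 14 tested among 16 genes of neurotrophin processing and secretion, 2 were called lower in females with nicotine, 1 higher and 3 lower in females without, none in males with nicotine, and 2 higher and 3 lower in males without. Cadps2, which takes part in the release of vesicles that hold Bdnf, was lower by log2 fold changes of -0.73, -0.76 and -0.63 in those 3 comparisons. Huntingtin (Htt), which takes part in the transport of such vesicles, changed by -0.22, -0.25 and -0.26, while its partner Hap1 was higher in females without nicotine (1.09, SE 0.259, edgeR adjusted p = 0.00614). Serpini1, an inhibitor of tissue plasminogen activator, was lower in males without nicotine (-0.56).

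Of 16 factors that act on Bdnf transcription, none was called higher and 2, 5, 0 and 2 were called lower, beside 2.32%, 7.03%, 0% and 7.47% of all genes called lower. Mef2c, an activity-dependent transcription factor of cortical neurons, ran from 689 to 983 CPM in air-exposed females and from 313 to 588 CPM in those without nicotine. Its log2 fold changes were -0.71 (SE 0.138, edgeR adjusted p = 0.00388) and -0.91 (SE 0.139, adjusted p = 0.000841) in females and -0.89 (SE 0.0930, adjusted p = 2.14e-05) in males without nicotine, and it was 0.56 higher in males with than without nicotine (adjusted p = 0.00692). The last call was lost without replicate 21 (0.54, adjusted p = 0.0179). Mef2d changed by -0.23, -0.29 and -0.25, and Crem, a relative of Creb1 that binds the response element, by -0.43 in females without nicotine (SE 0.0856, adjusted p = 0.00213). List medians lay between -0.15 and 0.09 on the log2 scale in all 4 comparisons for these 4 lists, beside 0.00 to 0.02 for all genes.

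**Figure D3:**
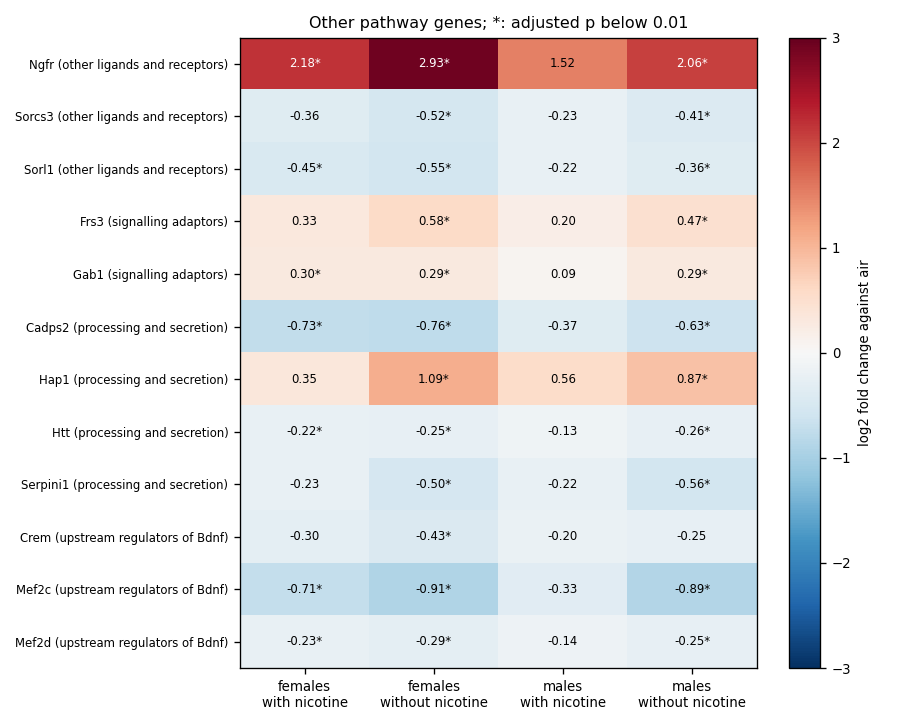
log2 fold change against air, printed in each cell and coloured from blue (lower) to red (higher), for the other pathway genes named by rule, in females and males exposed with or without nicotine, with * where the edgeR adjusted p was below 0.01. Of the genes shown, Ngfr has the largest value in every column, and the column of males with nicotine holds no *.

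The RNA levels of cell type markers moved with treatment. Whether the makeup of the dissected tissue differed, and its part in the changes of the 9 genes, was not tested beyond the fit given below. Cortical glutamatergic markers were present in every sample. Their 12 genes summed to 2725 to 3500 CPM in air-exposed females, 1870 to 2595 with nicotine and 1171 to 2693 without. In males the sums were 2651 to 3133, 1897 to 2612 and 962 to 1980 CPM. No exposed sample reached the lowest air sample of its sex. Of the 12 genes, 1, 9, 0 and 9 were called lower in the 4 comparisons. The 5 markers of basal forebrain cholinergic neurons, including Chat, summed to 16.4 to 62.9 CPM in air-exposed females and 69.7 to 204 CPM in exposed ones, and to 29.2 to 65.2 and 67.7 to 171 CPM in males. All 5 were called higher in the 3 comparisons other than males with nicotine. The same held for all 7 oligodendrocyte markers, at 8217 to 9891 CPM in air-exposed females and 11066 to 17193 CPM in exposed ones, and in males at 9433 to 11541 CPM in air, 9684 to 15022 with nicotine and 13743 to 23539 without. The study chose Chat and the cortical marker Tbr1 on these samples as well.

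Of 11 markers of striatal projection neurons, 3, 1, 0 and 3 were called higher, with sums of 1152 to 2813 CPM in air-exposed females and 2219 to 3493 CPM in exposed ones. In males the sums were 1610 to 2823 CPM in air, 1793 to 3597 with nicotine and 1923 to 5141 without. In every male without nicotine the striatal sum was above the cortical sum, as at 4012 against 962 CPM in replicate 3. None of the markers of astrocytes (7), microglia (5) or endothelium (4) was called in a comparison with air. The thalamic list (5 genes) had 2, 2, 0 and 1 called higher, the interneuron list (7) had 1, 3, 0 and 2 higher and 1, 2, 0 and 1 lower, and the choroid plexus list (5) 0, 0, 0 and 2 higher. The calls of Bdnf, Ntf3, Gdnf and Sort1 in males without nicotine were kept on leaving out replicate 7, where the choroid plexus markers were high. In females, the calls of Ret and Gfra2 without nicotine were lost on leaving out no nicotine replicate 3 (adjusted p = 0.0245 and 0.0192), and that of Sort1 with nicotine on leaving out air replicate 3 (adjusted p = 0.0108). The calls of Bdnf and Gdnf, and of Sort1 without nicotine, were kept without either library. Without female air replicate 6 (108 CPM), the calls of Gdnf (edgeR adjusted p = 0.0122) and Sort1 (0.0250) with nicotine were lost. So were those of Gfra2 (0.0127) and Ret (0.0169) without nicotine, while those of Bdnf, and of Sort1 without nicotine, were kept.

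With the cortical marker score of each sample as a covariate, none of the 9 genes was called in any comparison. In females that fit called 0 of the 15158 genes tested against either air comparison, so the 9 did not stand out there. The score was lower in every exposed sample than in every air sample in 3 of the 4 comparisons and overlapped by 1 sample in females with nicotine, so treatment and tissue makeup cannot be told apart by it. The Bdnf change was then -0.63 in females with nicotine (edgeR adjusted p = 0.140), -0.68 in females without (adjusted p = 0.818) and -0.15 in males without (adjusted p = 0.780). Gfra2 in females without nicotine changed sign, from -0.85 to 0.15, and Gdnf stood at 0.59 in females with nicotine and 0.39 in males without. Sort1 was at -0.10, -0.17 and -0.31, and Ntf3 in males without nicotine at -0.67. Ret in females without nicotine lost its call as well, and its lowest log2 fold change over all alternatives was 0.16.

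**Figure D4:**
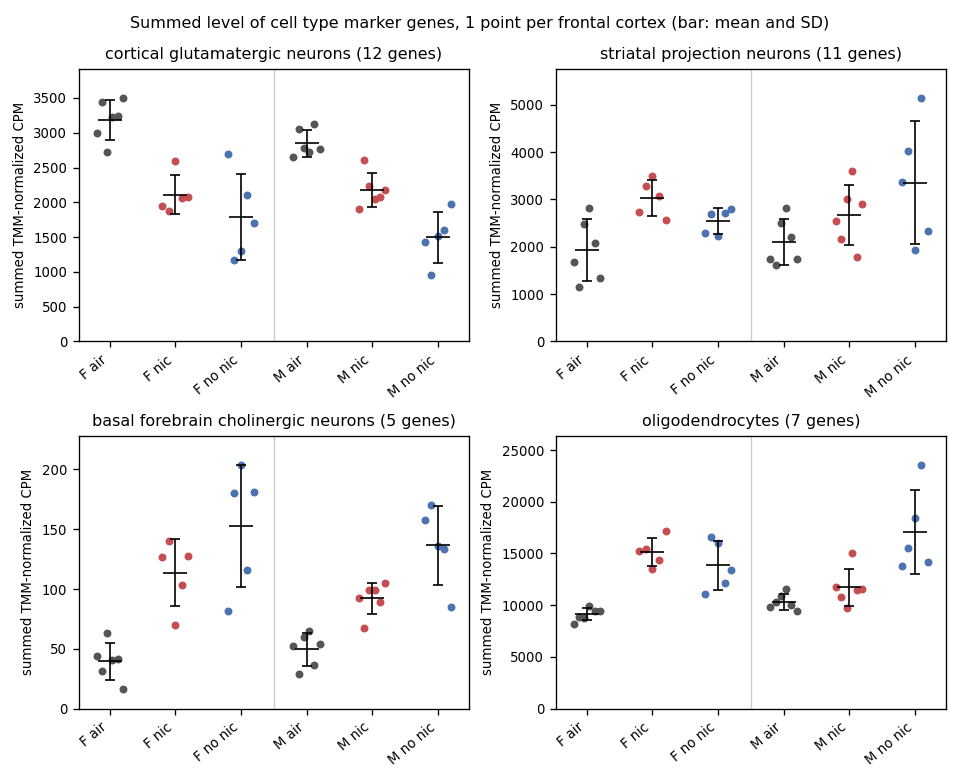
Summed TMM-normalized CPM (linear axis from 0) of the marker genes of 4 cell types in each frontal cortex, grouped by sex and treatment, with a bar for the mean and SD. Cortical glutamatergic sums are lower and basal forebrain cholinergic sums higher in every exposed sample than in every air sample of the same sex.

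The genes whose level followed Bdnf and Gdnf most closely over samples were found as those with the highest value of the lower of the female and the male Pearson r of log2 CPM, over 16 and 17 samples. Marker levels moved with treatment over these samples, so the values describe these libraries only. For Bdnf they were Coro1a (r = 0.939 in females and 0.918 in males), Lingo1 (0.915 and 0.905), Cckbr (0.896 and 0.910), Zbtb18 (0.903 and 0.895) and Rilpl1 (0.897 and 0.891). For Gdnf they were Zfp503 (0.896 and 0.902), Slc17a8 (0.893 and 0.916), Entpd3 (0.903 and 0.891), Tac1 (0.921 and 0.889) and Nfatc2 (0.888 and 0.905). None of the other 8 members was among the 5 of either.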

How the data were processed

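Frontal cortex RNA was sequenced from 33 mice (TruSeq libraries, single reads). The authors mapped reads to the mm9 transcriptome with Bowtie, removed duplicates with SAMtools, counted reads per gene with HTSeq and deposited raw counts, 1 table per sex (23366 genes). Whether counting used strand is not given in the sources used here. The normalized tables that were also deposited were not used. Of the count columns, 33 matched a labelled sample and 1, which matched none, was not used here.

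Genes with CPM summing to at least 5 over the samples of a sex were tested (15158 in females, 15293 in males, 15105 in the fit of both). After TMM normalization, edgeR 4.0.16 was used for quasi-likelihood tests, with all 3 treatments of a sex in the same model and no covariates. CPM per sample is TMM-normalized, and log2 CPM uses a prior count of 1. The fits were tested on simulated data. Alternatives used DESeq2 1.42.0, limma 3.58.1 (voom with sample weights), other scalings and filters, the cortical score, a replicate block and leaving out each sample. R 4.3.3, Python and matplotlib were used. Positions come from the mm9 annotation, and promoters from RefSeq on GRCm38.p6.

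The 9 genes and all lists were chosen with earlier results of these data known. All 9 are named, with, per further list and comparison with air, the 3 called genes with the smallest p (of which 1 is not reported here), and for Bdnf and Gdnf the 5 most alike genes. P-values measure the spread between samples, 1 pup per litter. Depth was 17845672 to 27513174 counts per sample.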

Additional observations from a re-analysis of the deposited data

How the results depend on the processing

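The number of the 9 genes called moved from 3, 4 and 4 (females with nicotine, females without, males without, each against air) to 0, 0 and 0 with the cortical marker score as a covariate. Of all genes, that fit called 0 in either female comparison, from 651 and 1829. In males without nicotine the lowest count of all genes over the alternatives was 14, from 2084. With the replicate number as a block it was 1 and 2 in females, and the numbers do not pair the samples (r of -0.273 to 0.266 over 14 same-numbered pairs, 4 over 0.1, and 7 of 16 samples closest to their own number). No paired analysis was possible in males, which share no numbers. Males without nicotine gave 7 calls with DESeq2 and 7 at an adjusted p of 0.05, and males with against without nicotine gave 2 and 1 instead of 0. Of all genes, an adjusted p of 0.05 called 3782 of 15293 in the former and 544 in the latter, from 2084 and 38. Leaving out 1 library gave 1 to 3, 2 to 4 and 4 to 6 calls against air, and 0 to 1 between the male exposed groups. Over all genes these fits gave 226 to 930, 823 to 2505 and 1521 to 2174 calls against air, and 0 to 246 between the male exposed groups. Signs turned with the cortical score for uncalled Gfra2 (0.041) and Ret (-0.053) in females with nicotine, Gdnf (-0.046) and Gfra1 (0.11) in females without, Ntf3 (0.00203) and Gfra2 (-0.11) between female exposed groups, Ntrk2 (-0.00049) in males with nicotine and Gfra2 (-0.12) between male exposed groups, and for called Gfra2 (0.15) and Hap1 (-0.044) in females without nicotine. Ntrk3 in males without nicotine turned to 0.00274 with upper quartile scaling and ran from -0.043 to 0.028 on leaving out a library, as Ntf3 between female exposed groups ran from -0.31 to 0.022 and Ntrk2 in males with nicotine from -0.00151 to 0.035. The cause was not tested. Bdnf kept its 3 calls under every alternative except the cortical score. Over all genes, the calls in females with nicotine were 651 with edgeR, 1319 with DESeq2, 1012 with voom and 136 with the block (without nicotine 1829 and 736 with the block), and in males with nicotine 0 with edgeR, 159 with DESeq2 and 17 in the fit of 2 groups. Between male exposed groups they were 38, 456 with DESeq2 and 59 with voom, and for the sex difference with nicotine DESeq2 gave 1. Upper quartile scaling put 60.6% of calls in females with nicotine higher, against 46.1%. Depth limits Ntf3 and Gdnf, which had under 100 reads in every library.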
